A study of Mus musculus with 4 samples.

Results

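The genes described here were the histone genes of the mouse genome in oocyte RNA-seq libraries, both the genes of the histone clusters and the variant and linker histone genes that stand outside them. A gene was a member when its current NCBI symbol was H1, H2a, H2b, H3 or H4 followed by bc, c or f and a digit, whatever its level. Of 78 such symbols in RefSeq, 56 were listed among the 17374 genes of the deposited table, through 63 listed transcripts, and the other 22 (17 protein-coding and 5 pseudogenes) were not analysed here. The libraries came from germinal vesicle (GV) stage oocytes of female mice on postnatal day 16, kept in meiotic arrest with milrinone. There were 2 control libraries and 2 libraries of oocytes given 5 Gy of γ-irradiation from a cesium-137 source and collected 24 h later. The study used F1 hybrids of C57BL/6 and DBA and oocytes of the non-surrounded nucleolus (NSN) type, in which the chromatin is open and transcription active. It counted 59 oocytes per condition, so that each library is a pool, and cumulus cells were removed by pipetting before lysis and capture of mRNA with oligo(dT).

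Histones package DNA into nucleosomes: a core of H2A, H2B, H3 and H4, closed by a linker histone of the H1 family. Genes in the histone clusters supply dividing cells during DNA replication, and their mRNAs typically end in a short stem-loop bound by the protein SLBP instead of a poly(A) tail. Replacement histones such as H3.3 are made from polyadenylated mRNAs outside S phase, and oocytes, which do not replicate DNA, are known for a linker histone of their own, H1oo, encoded by H1f8. Capture with oligo(dT) keeps RNA with a poly(A) tail, so mRNAs that end in the stem-loop can be under-counted, and the part of this in the levels below was not tested. In pooled cells, fewer oocytes of a kind and less RNA per oocyte cannot be told apart.

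The sequences of these genes bear on how far their counts can be told apart. The first 100 coding bases of 4 H2B genes are shown as an example of how alike such sequences are. They do not decide which reads from the rest of each gene have a single origin. They are those of H2bc23, H4bc24 (a gene with an H4 symbol but an H2B coding sequence), H2bc12 and H2bc4, with capitals for any base that differs from H2bc23.
H2bc23: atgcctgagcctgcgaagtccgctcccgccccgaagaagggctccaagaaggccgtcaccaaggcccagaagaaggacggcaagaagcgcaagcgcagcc
H4bc24: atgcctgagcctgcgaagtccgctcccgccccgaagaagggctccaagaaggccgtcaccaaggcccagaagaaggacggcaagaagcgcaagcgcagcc
H2bc12: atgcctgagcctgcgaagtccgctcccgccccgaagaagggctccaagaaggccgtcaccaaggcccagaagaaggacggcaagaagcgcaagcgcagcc
H2bc4: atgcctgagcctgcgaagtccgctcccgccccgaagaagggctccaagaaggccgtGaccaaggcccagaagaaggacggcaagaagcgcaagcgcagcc
Over all 381 coding bases H2bc23 and H4bc24 differed at 0 positions, H2bc4 differed from them at 2 and H2bc12 at 6. Each of the 282 windows of 100 bases in H2bc23 also lay in H4bc24 and in at least 1 further gene. Of the other abundant members, H1f8, H1f0 and H2ac1 shared none of their coding windows with another gene, H3f3b shared 18.9%, H3f3a 67.9%, H2bc12 94.3%, H2bc4 94.7% and H2ac18 100%. Counts of the genes with high shares can therefore be uncertain, since a read in a shared window can be split between genes. The shares cover coding sequence alone, in single windows, while the reads were paired. Bases after the stop, 2245 in H3f3a and 742 in H2bc4, were not searched for sharing, so how uncertain each count is was not measured.

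The stem-loop was looked for as CTTTTCAG followed by AG or GG, after the stop codon of the GENCODE transcripts of each gene, on the transcript strand alone. Among the members with a transcript that runs at least 60 bases past the stop, 18 of 32 cluster genes and 4 of 9 genes with an f symbol held either string. It is shown for the most abundant H2A gene and the most abundant H4 gene, with the searched string in capitals.
H2ac18: gctCTTTTCAGAGcca
H4c8: gccCTTTTCAGGGccg
The string was not in the sequence searched for H1f8, H1f0, H3f3a, H3f3b, H2bc4, H2bc12, H2bc23 and H4bc24. For H2bc23 and H4bc24 that sequence came from transcripts with 1608 and 1803 bases after the stop. The transcripts used for their coding comparison end at the stop, so nothing past it could be searched in them. Among the cluster genes searched, the 18 with the string had a median level of 0.613 TPM (a length-corrected share of each library's transcripts) and at most 53.2 TPM, the level of H2ac18. The 14 without it, which include H2bc23 and H4bc24, had a median of 1.14 TPM and reached 354 TPM in H2bc4. Stem-loops with other bases were not searched for, so lacking the string does not show that a gene lacks a stem-loop.

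A few promoters are shown because the levels of the genes beside them differ widely, and because the last of them is the same for H2bc23 and H4bc24. Each window runs from 250 bases before to 50 bases after the start given by RefSeq on GRCm38.p6, in the direction of the first gene named, and capitals mark the TATA box (TATAAA), the CCAAT box and the octamer (ATTTGCAT) on either strand. The windows were H1f8, chr6:115944681-115944980, plus strand; H2ac1, which lies head to head with H2bc1, chr13:23934187-23934486, plus strand; H2ac6, chr13:23683910-23684209, minus strand, which covers the whole stretch up to the divergent gene H2bc4; and H2bc23, chr13:21810150-21810449, minus strand.
H1f8: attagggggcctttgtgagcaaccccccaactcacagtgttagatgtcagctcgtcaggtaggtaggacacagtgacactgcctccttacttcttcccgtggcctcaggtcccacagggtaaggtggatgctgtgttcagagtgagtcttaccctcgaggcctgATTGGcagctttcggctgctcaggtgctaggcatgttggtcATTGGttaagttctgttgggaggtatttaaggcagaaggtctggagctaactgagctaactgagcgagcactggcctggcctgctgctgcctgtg
H2ac1: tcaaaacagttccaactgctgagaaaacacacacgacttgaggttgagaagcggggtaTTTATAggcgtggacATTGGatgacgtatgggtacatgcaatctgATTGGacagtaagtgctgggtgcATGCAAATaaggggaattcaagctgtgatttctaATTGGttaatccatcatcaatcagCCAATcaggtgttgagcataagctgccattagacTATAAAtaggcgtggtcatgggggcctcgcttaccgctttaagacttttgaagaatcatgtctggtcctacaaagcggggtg
H2ac6: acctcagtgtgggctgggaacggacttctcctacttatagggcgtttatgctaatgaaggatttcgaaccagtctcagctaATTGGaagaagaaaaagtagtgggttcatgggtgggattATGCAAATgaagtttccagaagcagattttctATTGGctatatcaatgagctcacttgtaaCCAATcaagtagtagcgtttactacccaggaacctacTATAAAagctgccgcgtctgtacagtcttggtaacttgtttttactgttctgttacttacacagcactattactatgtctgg
H2bc23: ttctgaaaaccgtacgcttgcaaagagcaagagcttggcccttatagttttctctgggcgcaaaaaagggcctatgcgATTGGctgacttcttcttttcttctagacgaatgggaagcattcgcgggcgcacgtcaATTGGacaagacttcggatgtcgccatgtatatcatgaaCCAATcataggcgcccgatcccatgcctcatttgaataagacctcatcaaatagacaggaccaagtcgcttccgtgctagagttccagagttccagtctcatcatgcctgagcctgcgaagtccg
The promoter window of H4bc24 differed from that of H2bc23 at 0 of 300 bases. RefSeq gave 52 promoter windows for 51 of the 56 members. The TATA box was in 48.1% of them and in 13.6% of all 32851 RefSeq promoter windows, the CCAAT box in 84.6% and 37.4%, and the octamer in 13 of the 52 and 1.74% of all. The octamer was in 6 of 13 H2A and 6 of 13 H2B windows and in 0 of 7 windows of the H3 cluster genes and 0 of 7 of the H4 cluster genes. The windows of head-to-head neighbours overlap, so an H2A gene and its H2B partner can share a match.

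The libraries held between 33349466 and 37232818 estimated counts, and the histone genes took 1.73% to 1.83% of them. Of the 10 oocyte markers chosen, all were listed, and their summed level was 44086 to 49431 TPM. Single markers differed in both directions in irradiated library 2. Zp2 had 1937 TPM there against 4115 to 4452 TPM elsewhere, and Nobox 1215 TPM against 398 to 468 TPM. Granulosa and cumulus cell markers summed to 16.8 and 19.1 TPM in the controls and 16.7 and 22.3 TPM after irradiation (9 of 14 listed, with Hsd17b1, Gja1 and Has2 at 3 counts or fewer in each library), theca and stroma markers to 0.32 to 0.38 TPM (3 of 6 listed), and none of 5 blood genes was listed. Irradiated library 2 stood apart in composition, with a scaling factor (TMM) of 1.19 against 0.92 to 0.97 in the other libraries. It also had the highest sum of 8 S phase markers, 234 TPM against 175 to 182 TPM, though Top2a was lowest there (3.66 TPM against 4.02 to 5.06 TPM). Because of this, values without that library are given beside several results, and its part in each was not tested.

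The linker histone H1f8 dominated the histone mRNA of these oocytes. Its level was 19822 and 18950 TPM in the controls and 20887 and 21733 TPM in the irradiated libraries. It ranked 5 in both controls, 4 in irradiated library 1 and 3 in irradiated library 2 among all genes by TPM and made up 82.4% to 85.5% of all histone TPM. The 12 members with an f symbol carried 97.9% of histone TPM on average. They include the linker and replacement genes (some linker genes lie in the cluster on chromosome 13 as well) and H4f16, an H4 gene that held the stem-loop string. The 44 members with a c or bc symbol, called cluster genes here, carried 2.12%. By family, and counting only genes of the naming rule, the mean share of histone TPM was 83.8% for H1, 14.1% for H3, 1.60% for H2B, 0.394% for H2A and 0.0980% for H4. The H2A share leaves out H2az1 and other variants named differently, and with H2az1 alone (438 TPM) H2A would stand above the 390 TPM of H2B. Levels fell off steeply: 4 members had a mean level over 100 TPM, 5 lay between 10 and 100, 16 between 1 and 10, and 31 under 1 TPM. The shares of the core families rest on oligo(dT) capture and are not the proportions of the proteins.

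**Figure D1:**
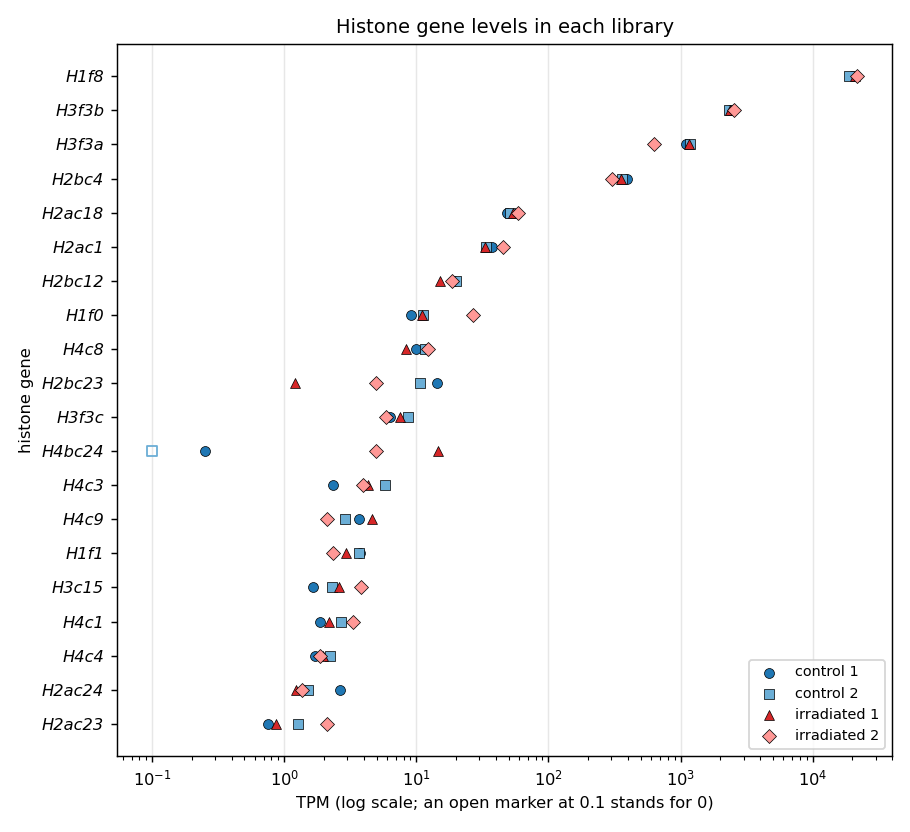
Level in TPM (log axis) of the 20 histone genes with the highest mean, 1 marker per library (2 control, 2 irradiated). H1f8 has a mean of 20300 TPM and H3f3b of 2400 TPM, and H2bc23 and H4bc24 are the genes whose libraries spread most widely.

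Of the 56 members, 24 had enough counts to be tested between irradiated and control oocytes and 32 did not (13 had 3 counts or fewer in every library, which is the limit that a count of 0 allows). None of the 24 was called, that is, reached an adjusted p under 0.05 with a log2 fold change beyond 2 in the edgeR quasi-likelihood test, with p-values adjusted by Benjamini-Hochberg over all genes, where 0.00796% of 12569 genes tested were called. At an unadjusted p under 0.05 there were 2 members, H2bc23 and H4bc24, against 5.92% of all genes. H4bc24 was the higher of these and H2bc23 the lower, where 4.63% of all genes were higher and 1.29% lower at that p. By edgeR's exact test and by DESeq2, 2 members were called, the same pair, where 0.0796% of 12569 genes were called by the exact test and 0.0230% of 17374 by DESeq2. These 2 genes have the same coding sequence, so their counts are not independent. H4bc24 reached the count filter through the irradiated libraries alone. Counted as 1 feature, a choice made after seeing the data, they left 0 members called by the quasi-likelihood test. By that test 0 members then had an unadjusted p under 0.05. Of the 24, 7 had higher and 17 lower fitted values after irradiation, and their median log2 fold change was −0.16, with quartiles of −0.42 and 0.07. Over all genes tested the median was 0.010, with quartiles of −0.17 and 0.22, and 48.6% had lower fitted values. Both irradiated libraries lay below both controls in 8 members and above them in 3, and the shares over all genes were 19.9% and 22.1%. In 12 of the 24 the lowest normalized count was in irradiated library 2, against 35.4% of all genes. The highest was in that library in 4 of the 24, against 38.2% of all genes. When libraries were scaled by their totals alone, the members' median was −0.03 while that of all genes moved to 0.17, and on log2(TPM + 1) the medians were 0.02 and 0.15, so the sign of the members' median depended on the scaling while it stayed below that of all genes.

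**Figure D2:**
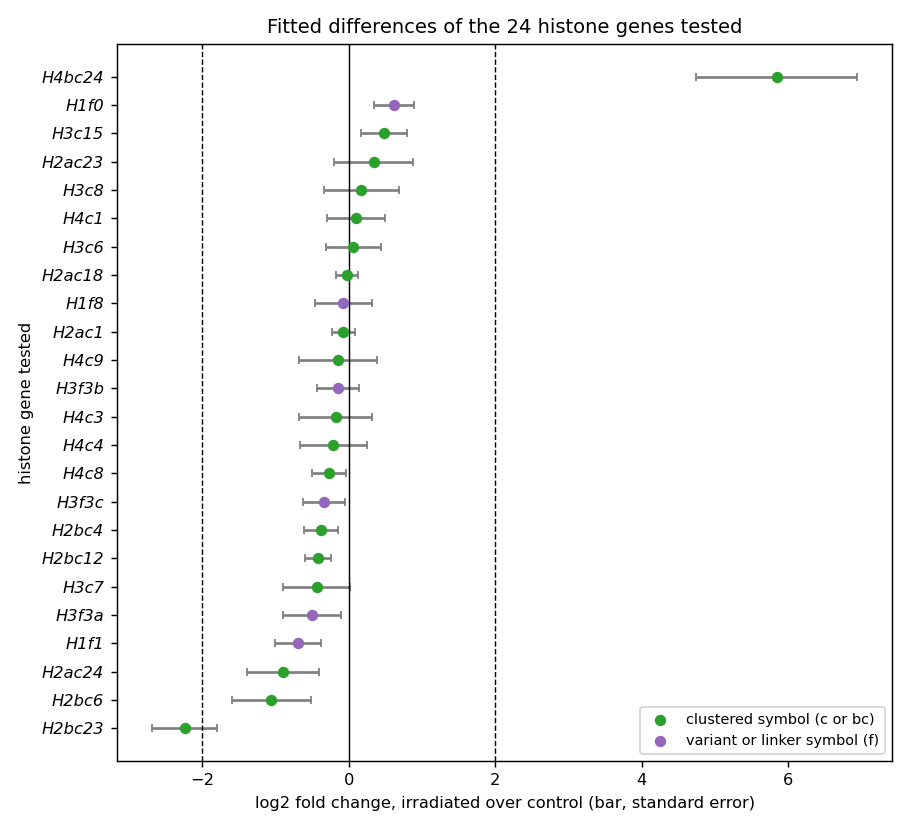
Fitted log2 fold change of irradiated over control oocytes for the 24 histone genes tested, with standard errors; green, cluster genes, purple, genes with an f symbol, dashed lines, the limits of 2 and −2. Apart from H4bc24 (5.84) and H2bc23 (−2.24), every point lies between −1.06 and 0.62.

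The linker gene H1f8 had overlapping normalized counts in control and irradiated oocytes. Normalized counts, which are counts scaled by TMM to the mean library, were 525156 and 475676 in the controls and 532653 and 419619 after irradiation. The log2 fold change was −0.07 with a standard error (SE) of 0.39, while in TPM both irradiated libraries lay above both controls, so the direction turned with the scaling. Both listed transcripts of H1f8 were abundant, NM_138311.3 with 63.5% to 64.6% of the counts of the gene and NM_001346702.1 with 35.4% to 36.5%, and these shares did not separate control from irradiated libraries.

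H1f0 encodes H1.0, a linker histone known from cells that have left the cell cycle. It had normalized counts of 539 and 623 in the controls and 624 and 1155 after irradiation. Irradiated library 2 stood above the other 3, while irradiated library 1 was level with the higher control. The log2 fold change was 0.62 (SE 0.28) with an adjusted p of 0.708 (edgeR quasi-likelihood test, Benjamini-Hochberg), and without irradiated library 2 it was 0.11. The level of H1f8 was 2170 and 1690 times that of H1f0 in TPM in the controls and 1890 and 804 times after irradiation. H1f1, which encodes the cluster-encoded linker H1.1, ran the other way in its fitted value, with 58.4 and 55.3 normalized counts in the controls and 44.7 and 26.7 after irradiation. Both irradiated libraries were lower, but the log2 fold change of −0.69 (SE 0.31) did not pass the test and was −0.35 without irradiated library 2. The linker genes H1f2, H1f3, H1f4 and H1f10 had between 1 and 7 counts in every library and were not tested, and the germ line linkers H1f6, H1f7 and H1f9 were not among the genes listed.

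The replacement histone H3.3 came from H3f3b and H3f3a, which encode the same protein with coding sequences 76.9% identical. Levels of H3f3b were 2368 and 2336 TPM in the controls and 2362 and 2549 TPM after irradiation, and the log2 fold change of its counts was −0.15 (SE 0.29). H3f3a had 1102 and 1178 TPM in the controls and 1155 and 624 TPM after irradiation. Irradiated library 1 was within the controls and irradiated library 2 far below them, so the groups overlapped. On counts the log2 fold change of H3f3a was −0.50 (SE 0.40), which became 0.01 when irradiated library 2 was left out and −1.29 when irradiated library 1 was. The ratio of H3f3b to H3f3a in TPM was 2.15, 1.98 and 2.05 in the controls and irradiated library 1 and 4.08 in irradiated library 2. H3f3b had 2 listed transcripts, of which NM_008211.3 held 86.6% to 87.9% of its counts in each library.

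**Figure D3:**
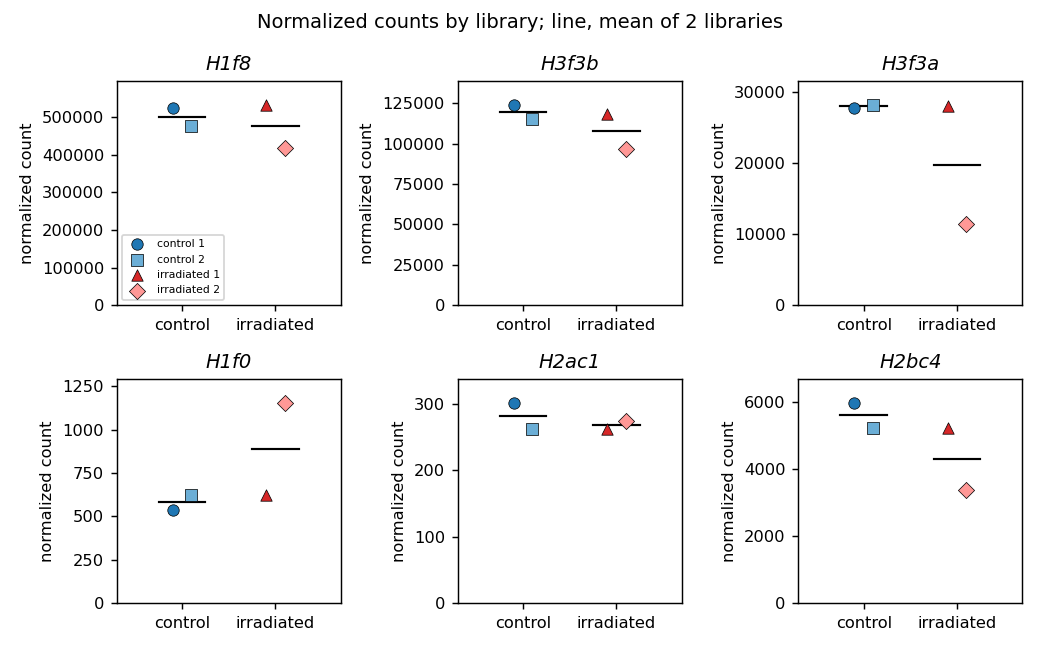
Normalized counts per library of H1f8, H3f3b, H3f3a, H1f0, H2ac1 and H2bc4, on axes that start at 0, with lines at the mean of each pair of libraries. Irradiated library 2 (diamond) is the farthest from the other 3 libraries for H3f3a, with 11465 against 27749 to 28128, and for H1f0, with 1155 against 539 to 624.

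The cluster genes for H3 were scarce beside H3.3. H3f3a and H3f3b together had 591 and 619 times the TPM of the 9 cluster H3 genes in the controls and 595 and 369 times after irradiation. The most abundant of these, H3c15, had 1.64 and 2.28 TPM in the controls and 2.62 and 3.79 TPM after irradiation. Both irradiated libraries were above both controls, and the log2 fold change of its counts was 0.48 (SE 0.31). All of its coding windows were shared with other genes. H3f3c, a further gene with an f symbol, had 152 and 194 normalized counts in the controls and 172 and 102 after irradiation, which overlapped (log2 fold change −0.34, SE 0.28). H3f4 had 1 to 3 counts per library, and H3f5 was not among the genes listed.

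H2B mRNA came almost wholly from H2bc4, a cluster gene that encodes a canonical H2B. It had 395 and 363 TPM in the controls and 356 and 302 TPM after irradiation, against 34.2 to 37.7 TPM for the other 13 H2B genes together. Normalized counts of H2bc4 were 5973 and 5234 in the controls and 5230 and 3358 after irradiation. Both irradiated libraries were lower, the first by very little, and the log2 fold change was −0.38 (SE 0.23) with an adjusted p of 0.708 (edgeR quasi-likelihood test, Benjamini-Hochberg). Without irradiated library 2 it was −0.10. Of its counts, 99.8% to 99.9% were in the transcript NM_023422.3, and NM_001290380.1 held the rest. H2bc12 had 168 and 169 normalized counts in the controls and 131 and 121 after irradiation. These did not overlap, and the log2 fold change was −0.42 (SE 0.18), between −0.47 and −0.36 when any single library was left out, with an adjusted p of 0.708 (edgeR quasi-likelihood test, Benjamini-Hochberg).

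The genes H2bc23 and H4bc24, whose coding and promoter sequences are the same, had fitted values in opposite directions. H2bc23 had estimated counts of 107 and 73.87 in the controls and 8.78 and 33.58 in the irradiated libraries, and its log2 fold change was −2.24 (SE 0.44). H4bc24 had 1.81 and 0.00 in the controls and 102 and 32.65 after irradiation. For neither gene did the groups overlap. From 2 counts in both controls together and 135 in both irradiated libraries, the ratio for H4bc24 per unit of TMM-scaled library size was 61.0. Its 95% interval of 16.6 to 509 covers counting error only and takes the deposited split between the 2 genes as given. H4bc24 reached the count filter through the irradiated libraries alone. The fitted log2 fold change of 5.84 depends on how a count of 0 is treated. The adjusted p was 0.708 for both genes (edgeR quasi-likelihood test, Benjamini-Hochberg). Together the 2 genes had counts of 108.4 and 73.9 in the controls and 111.2 and 66.2 after irradiation. The share given to H4bc24 was 1.67% and 0% in the controls and 92.1% and 49.3% after irradiation. Counted as 1 feature, a choice made after seeing the data, the pair had a log2 fold change of −0.14 and an adjusted p of 0.899 by the same test. The listed transcript NM_001313880.1 held 96.2% to 100% of the counts of H2bc23. The GENCODE transcripts compared here, 381 bases for each gene, have no window of 100 bases that differs. They end at the stop codon, and any bases of the listed transcripts beyond it were not compared. Over the sequence compared, how the counts were divided between the genes, and whether that differs between the oocytes, cannot be told apart.

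**Figure D4:**
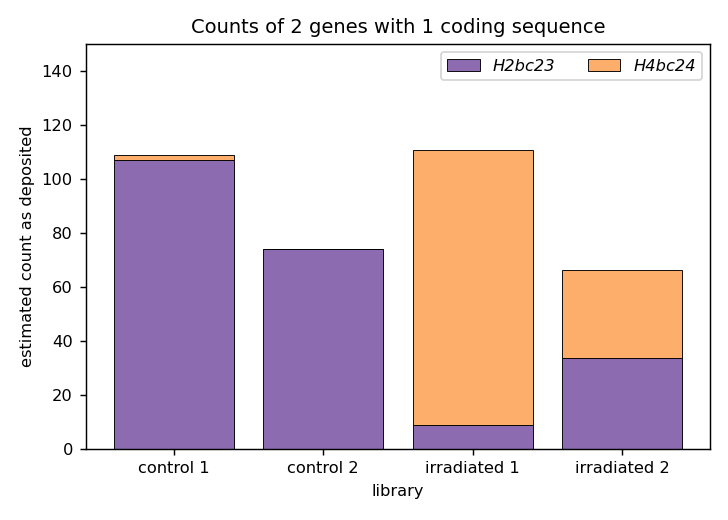
Estimated counts of H2bc23 (purple) and H4bc24 (orange), stacked for each library. The totals lie between 66.2 and 111.2 in control and irradiated libraries alike, while the orange part is 0% to 1.67% in the controls and 49.3% to 92.1% after irradiation.

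Among the members, H2ac18 and H2ac1 were the most abundant H2A genes; H2az1, outside the naming rule, had 438 TPM. H2ac18, a cluster gene for canonical H2A, had 48.8 and 51.2 TPM in the controls and 53.7 and 59.2 TPM after irradiation, while its normalized counts of 503, 508, 542 and 454 overlapped (log2 fold change −0.02, SE 0.15). The groups of H2ac18 were thus apart in TPM and not in normalized counts. H2ac1 encodes Th2a, an H2A variant known from testis and oocytes. It had 37.4 and 33.5 TPM in the controls and 32.8 and 45.2 TPM after irradiation. The groups overlapped, with a log2 fold change of −0.07 (SE 0.16). H2bc1 encodes its partner variant Th2b and had 0.60, 0.84, 1.15 and 0.53 TPM in the same 4 libraries, too few counts to test. H2ac24 and H2ac23 have identical coding sequences as well, each beside a gene of the pair above. Their fitted values were −0.90 (SE 0.49) and 0.34 (SE 0.54) on the log2 scale, at 8.41 to 19.07 and 7.49 to 18.54 estimated counts.

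H2A and H2B genes of the cluster on chromosome 13 often lie head to head, with their starts on opposite strands. The members listed held 8 such neighbours, 167 to 280 bases apart. H2ac6 had a mean of 0.887 TPM where H2bc4, 239 bases away, had 354 TPM, so the H2B side was 263 to 988 times higher in each library, at 3.23 to 10.35 estimated counts for H2ac6. H2ac12 had 0.302 TPM beside 18.3 TPM for H2bc12. The order was the other way round for H2ac1, with 37.2 TPM beside 0.780 TPM for H2bc1, 28.6 to 85.2 times higher in each library. The remaining 5 neighbours had means of at most 7.82 TPM. The stem-loop string was in H2ac6 and not in the sequence searched for H2bc4. For H2ac1 and H2bc1 there were 0 bases after the stop to search. Of the coding windows, 61.9% of those of H2ac6 and 94.7% of those of H2bc4 were shared with other genes. After oligo(dT) capture, a difference between neighbours in polyadenylation and one in transcription cannot be told apart. The part of shared reads in these ratios was not tested.

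**Figure D5:**
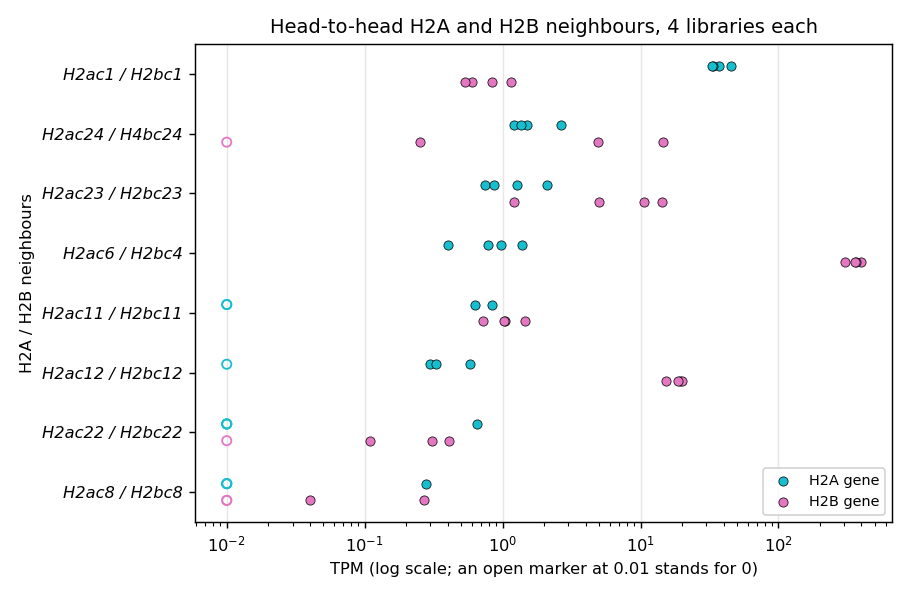
Level in TPM (log axis) of 8 head-to-head neighbours of an H2A gene (blue) and an H2B gene (pink), 1 point per library; zeros are drawn as open markers at 0.01 and overlap. H2bc4 (354 TPM) and H2bc12 (18.3 TPM) lie far above their H2A neighbours, and H2ac1 (37.2 TPM) far above H2bc1.

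The H4 genes were expressed at low levels. H4c8 was the most abundant, with 9.93 and 11.6 TPM in the controls and 8.42 and 12.2 TPM after irradiation. Its normalized counts were 68.7 and 78.0 in the controls and 57.4 and 63.7 after irradiation. The groups thus overlapped in TPM and not in normalized counts, and the log2 fold change of its counts was −0.27 (SE 0.23). H4c3, H4c9, H4c1 and H4c4 had between 10 and 27.8 estimated counts per library, their groups overlapped, and their fitted log2 fold changes lay between −0.21 and 0.10. H4f16 had 14 and 5 counts in the controls and 7 and 6 after irradiation and was not tested, and H4c16 was not among the genes listed.

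The genes that make and process histone mRNA were all listed. Of 27 such genes, all were tested and none was called, and 1 had an unadjusted p under 0.05, against 5.92% of all genes. Their median log2 fold change was −0.002, with 13 higher and 14 lower fitted values. Slbp, which binds the histone stem-loop, was among the most abundant, with a mean of 3580 TPM and a log2 fold change of −0.26 (SE 0.33), which was −0.02 without irradiated library 2. Lsm10 and Lsm11, parts of the U7 particle that directs cutting of histone mRNA, had means of 686 and 1.39 TPM and log2 fold changes of −0.20 and 0.16. Zfp473, a zinc finger protein of the same machinery, had a log2 fold change of −0.002 (SE 0.14). Npat, the activator of histone genes in S phase, and Casp8ap2 (FLASH), which works in processing, were at −0.27 (SE 0.16) and −0.38 (SE 0.22), and Casp8ap2 at −0.09 without irradiated library 2. The gene with an unadjusted p under 0.05 was Upf1, an RNA helicase needed for the decay of histone and other mRNAs. It had 14.4 and 15.3 TPM in the controls and 21.4 and 45.4 TPM after irradiation, highest in irradiated library 2, with a log2 fold change of 0.88 (SE 0.23) and an adjusted p of 0.708 (edgeR quasi-likelihood test, Benjamini-Hochberg). Without irradiated library 2 the log2 fold change of Upf1 was 0.50.

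Of 9 histone variant genes outside the naming rule, 8 were listed and tested, and none was called. An unadjusted p under 0.05 was found for 1 of them, against 5.92% of all genes. Their median log2 fold change was 0.11, with 7 higher and 1 lower, where 48.6% of all genes tested had lower fitted values. H2ax, the variant that is phosphorylated at DNA breaks, had 740 and 856 estimated counts in the controls and 912 and 2238 after irradiation. Both irradiated libraries were above the controls, the second far above, and the log2 fold change was 0.78 (SE 0.30), with an unadjusted p of 0.0372 and an adjusted p of 0.708 in the edgeR quasi-likelihood fit; H2ax stood at 0.20 on that scale without irradiated library 2. The most abundant of the 8 was H2az1, a replacement H2A, with a mean of 438 TPM and a log2 fold change of −0.40 (SE 0.22), and −0.16 without irradiated library 2.

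At the level of transcripts, 25 of the 63 listed for the members were tested. None was called by edgeR's quasi-likelihood test, where 0% of 26645 transcripts were, and 2 had an unadjusted p under 0.05, against 4.90% of all transcripts. The smallest adjusted p among them was 0.784 (edgeR quasi-likelihood test, Benjamini-Hochberg).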

How the data were processed

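RNA-seq was made from 2 control and 2 irradiated pools of GV oocytes. Per the labels and the study's methods, mRNA was captured with oligo(dT), sequenced as paired reads of 100 bases and aligned to GRCm38 (mm10); the submitters' processing notes name HISAT2, Bowtie2 and RSEM without saying which program made which column. The authors deposited estimated counts and TPM for 45505 transcripts; 10 further columns (4 of FPKM and 6 of averages per condition) were not used.

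Estimated counts were summed per gene and rounded, and the deposited TPM were summed per gene. Differences were tested over the whole table with edgeR 4.0.16 in R 4.3.3 (quasi-likelihood test, filter with a minimum count of 10, TMM, Benjamini-Hochberg adjustment). Genes were called by the limits of the study: beyond 2 on the log2 scale, with an adjusted p below 0.05. Symbols and promoters were RefSeq's on GRCm38.p6, and coding sequences were GENCODE's on the same build, found for 54 of the 56 members. DESeq2 1.42.0, limma 3.58.1, other scalings and filters, and leaving out each library were alternatives. The intervals cover counting error only. Replicates were pools from separate experiments by the study's account, and nothing further says which animals they came from, so p-values measure the spread between these libraries.

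Named genes were the 20 members with the highest mean TPM, members with an unadjusted p under 0.05, a list of germ line and replacement histones, and in the processing list 6 genes with the gene of smallest p. Outside that rule, H2ac6, H2ac12, H1f2, H1f3 and H1f4 were named for their position or family, and H2ax and H2az1 after their values were seen. The members and the lists were chosen with earlier results of these data known.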

Additional observations from a re-analysis of the deposited data

How the results depend on the processing

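With 2 libraries per condition, the reported test called 1 gene of the whole table, so a missing call does not show that a histone gene kept its level, and members with few counts were not tested at all. Calls among the members concerned H2bc23 and H4bc24 alone. None was called as reported, against 2 by DESeq2, 2 by edgeR's exact test, 1 (H4bc24) without the filter on low counts and 1 to 2 when a library was left out. Over the whole table the calls were 1 as reported, 4 by DESeq2, 10 by the exact test, 3 without the filter and 16 to 51 with a library left out. Leaving out a library leaves 1 sample in its group, which is then assumed to vary like the other group. Members with an unadjusted p under 0.05 numbered 2 as reported, 4 by DESeq2, 5 without the filter, 0 with H2bc23 and H4bc24 as 1 feature (added after seeing the data) and 2 to 10 when a library was left out, with 10 without irradiated library 1. For the processing genes this count was 1 as reported and 1 to 12 when a library was left out, with 12 without irradiated library 1 and 4 without irradiated library 2. The log2 ratio of the summed normalized counts was −0.33 for the cluster genes (−0.618 to −0.085 with a library left out) and −0.10 for the genes with an f symbol (−0.294 to 0.068), and the ends of both ranges came from leaving out irradiated library 1 or 2. Each sum was mostly 1 gene. In the control mean H2bc4 held 5603 of 6974 normalized counts of the cluster genes, and H1f8 held 500416 of 648717 for the f symbol. Without H2bc4 the ratio of the cluster genes was −0.11.

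Over 20 named genes and their alternatives, 238 of 278 values kept their direction and side of the threshold, and 10 genes never turned direction. Scaling by library totals turned H1f8 to 0.071, H2ac18 to 0.124 and H2ac1 to 0.093. On log2(TPM + 1) and log2(TPM + 0.1), tested with limma, H1f8 was 0.14 and 0.14, H3f3b 0.061 and 0.061, H2ac18 0.17 and 0.17, H2ac1 0.12 and 0.12 and H4c3 0.10 and 0.15. On these scales all genes moved up by 0.15 and 0.21 in the median and the members' median was 0.02. Leaving out a library gave −1.285 to 0.005 for H3f3a, −0.16 to 0.10 for H2ac18, −0.25 to 0.091 for H1f8, −0.69 to 0.60 for H4c3, −0.42 to 0.014 for H4c4, −1.07 to 0.47 for H4c9, −0.17 to 0.029 for H2ac1, −0.15 to 0.39 for H4c1 and −0.23 to 0.81 for H2ac23. The cause of these turns was not tested.

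The sources do not say that a replicate number marks a shared litter, batch or day. Deviations of libraries with the same number correlated at a Pearson r of 0.098 and a Spearman rho of 0.210 across 12569 genes, which are not independent, and with 2 pairs the pairing could not be settled. With the number as a block, 1 member was called (H4bc24, adjusted p = 7.61e-04 in edgeR), and 7 genes of the whole table were called. At an unadjusted p under 0.05 there were 5 members and 2 processing genes, and the share over all genes was not computed for this setting.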
